A study of Mus musculus with 13 samples.

Results

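The genes described here carry out or time DNA replication in S phase. They were chosen by name as 44 replication genes, with earlier results of these data known. All 44 were found among 24300 genes with a usable estimate in the RNA-seq table. They cover the origin licensing factors, the replicative helicase and its activators, the polymerases, the sliding clamp and its loader, nucleotide synthesis, chromatin assembly, fork protection, and the E2F and cyclin E regulators of S phase entry. RNA was sequenced from ex vivo peripheral regulatory T cells (Tregs) of male C57BL/6 mice aged 21 days, with 3 libraries from Foxp3Cre-YFP mice (WT) and 3 from Foxp3Cre-YFP Ctnnb1flex3 mice (CAT). Both genotypes carry a Cre recombinase and YFP driven by Foxp3, the transcription factor that defines Tregs, so the controls share the driver. In CAT cells this Cre removes exon 3 of Ctnnb1, the gene of beta-catenin, which leaves a protein that escapes degradation. ATAC-seq, which maps open chromatin, was done in 3 WT and 2 CAT libraries of the same age, from CD25+ YFP+ cells sorted out of lymph nodes. TCF1, a DNA-binding partner of beta-catenin, was mapped by ChIP-seq in 1 library of lymph node and spleen Tregs from WT mice aged 10 to 12 weeks. The labels do not say whether each library came from its own mouse, so p-values measure the spread between libraries.

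DNA replication starts at origins that are licensed in G1 phase, when the origin recognition complex, CDC6 and CDT1 load the ring-shaped MCM helicase onto DNA. Kinases then turn the loaded ring into an active helicase with CDC45 and GINS, and polymerases alpha, delta and epsilon copy the strands on a clamp made of PCNA. Most genes of this machinery are transcribed around the start of S phase under E2F factors, and resting T cells hold many of them at low levels. Tregs divide more than most other peripheral CD4+ T cells.

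The RNA libraries held 24124086 to 31527245 estimated fragments each. WT replicates 1 and 3 had fragments on 19640 and 19735 genes, against 15747 to 16051 in the other libraries, so the counts were also taken with WT replicate 2 as the sole WT library. All 7 Treg markers were expressed in both genotypes, and Foxp3 stood at 86.8, 110.0 and 118 CPM (fragments relative to the library's scaled total) in WT and at 153, 155 and 166 CPM in CAT. Total Ctnnb1 RNA did not pass the test, with a log2 change of -0.10 ± 0.09 (SE). The total does not show whether exon 3 was deleted. The summed CPM of 11 CD8 T and NK cell markers lay between 30.0 and 36.1 in WT and at 3809, 3137 and 1202 in CAT. Of the 9 tested, 8 were higher in CAT, and nearly all of the CAT sum was Gzma, at 3665, 3003 and 1099 CPM. Cd8b1 stood at 9.15, 8.67 and 7.65 CPM in WT and at 20.2, 23.2 and 30.1 CPM in CAT, Nkg7 was 3.11-fold and Prf1 2.20-fold higher, and Gzmk reached 46.8 CPM in CAT. Klrk1, Klrc1 and Cd8a were also higher in CAT, Cd8a by 3.70-fold at 1.19 CPM or less in every library. Klrb1c did not pass, and Ncr1 and Klrd1 were too scarce to be tested. Summed B cell markers lay between 21.3 and 27.4 CPM in WT and between 11.6 and 18.7 in CAT, and summed myeloid markers between 12.6 and 17.4 and between 9.20 and 12.4. Summed erythroid markers lay between 1.12 and 1.62 CPM in WT and between 2.65 and 3.17 in CAT, with Hba-a2 at 0, and thymocyte markers between 206 and 217 and between 168 and 224. The part of these other cells in the results was not tested.

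Most of the 44 replication genes were higher in CAT Tregs, with rises in each of their roles. Other replication genes were more mixed: of 74 described further below, 37 rose, 13 fell and 24 did not pass. Of the 44, 38 rose, none fell and 6 did not pass the test (Cdt1, Gins4, Pold2, Pcna, Rfc4 and Rpa1). The test was edgeR's quasi-likelihood test with Benjamini-Hochberg adjustment over all 13193 tested genes at an adjusted p of 0.05, and all 44 passed its expression filter. Among all tested genes, 25.5% were higher and 23.5% lower. The median log2 change of the 44 was 0.83, which is 1.78-fold, against 0.00074 for all tested genes. At least a 2-fold rise was seen for 18 of the 44, or 40.9%, against 10.8% of tested genes. In 38 of the 44 every CAT library lay above every WT library, as in 30.1% of tested genes, and in none did every CAT library lie below, as in 29.1%. For 37 genes both held: Orc6 passed the test with overlapping groups, and Rpa1 had separate groups without passing. At an unadjusted p under 0.05, 40 were higher and 0 lower, and DESeq2 and limma on log2(FPKM + 1) also called 0 lower, FPKM being fragments scaled to transcript length and library total. In bulk RNA, more cells in S phase and more of each RNA per cell cannot be told apart.

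**Figure D1:**
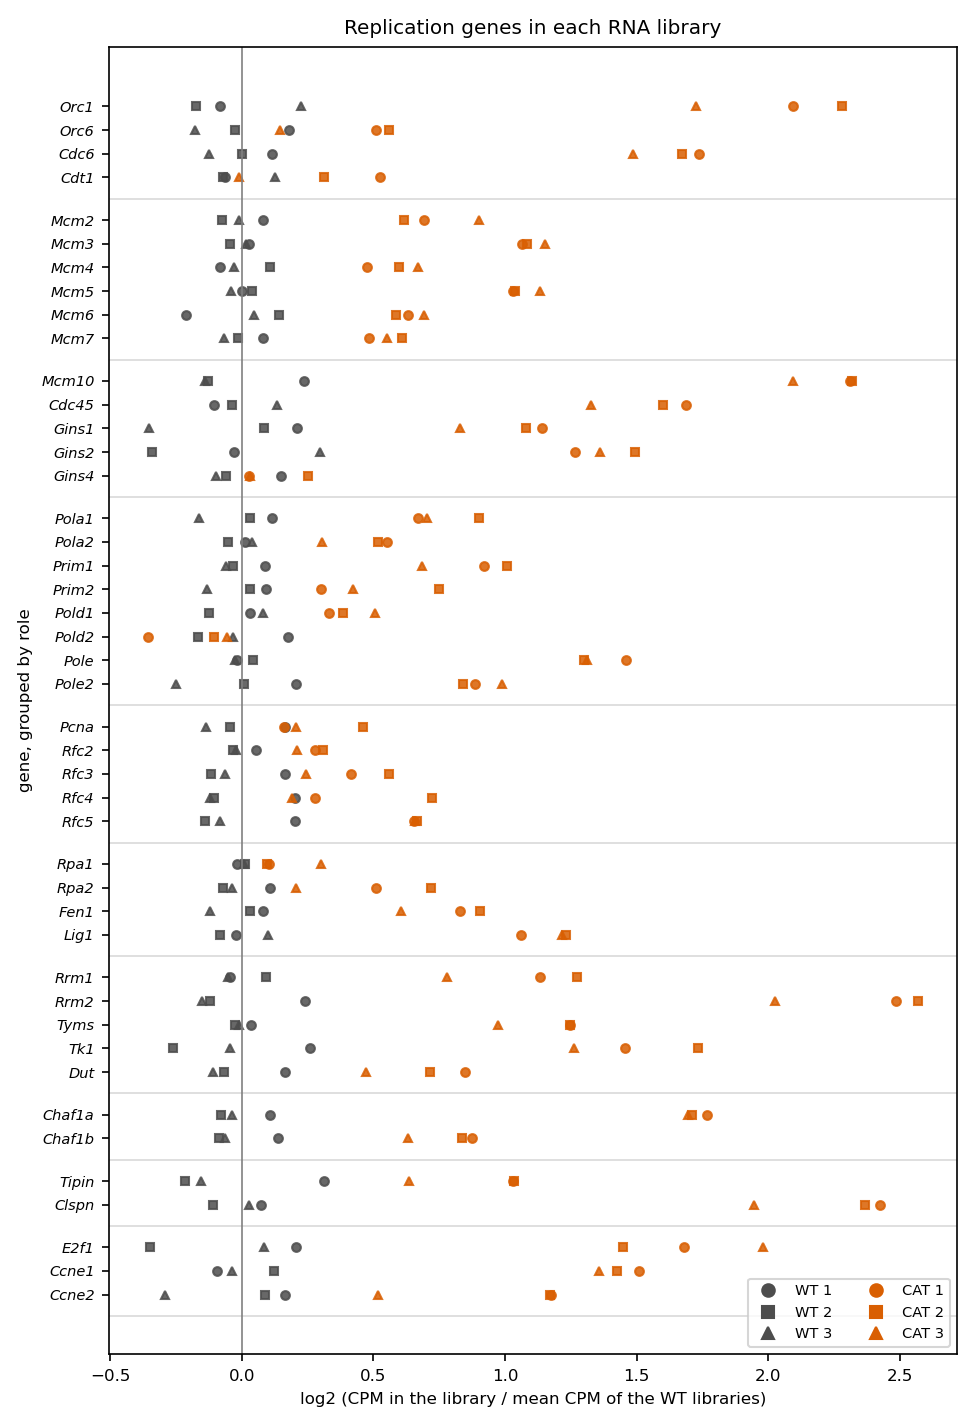
Each of the 44 genes in each RNA library, as the log2 of its CPM over the mean CPM of the 3 WT libraries, in blocks by role (grey, WT; orange, CAT; symbol, replicate). The CAT points stand to the right of all WT points for 38 of 44 genes, while those of Cdt1, Gins4, Pold2, Pcna, Rfc4 and Orc6 run into the WT points.

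Promoters of these genes are shown because E2F factors, which drive S phase transcription, bind short GC-rich words next to a run of T. RefSeq promoter windows on GRCm38.p6, from 250 bases before to 50 after the start, were at hand for 35 of the 44 genes. They were searched on both strands for TTTCCCGC, TTTGGCGC, TTTCGCGC and TTTGCCGC, words that can overlap one another. The windows of 13 genes held at least 1 of them, or 37.1% of genes, against 4.6% of 9957 tested genes with a window. Counted by window instead of by gene, 2.3% of all 32851 windows held 1. The 13 genes were Orc1, Cdc6, Cdt1, Mcm3, Mcm5, Mcm6, Mcm7, Pola1, Pold1, Pole2, Rfc3, Lig1 and Clspn. In the stretches below, 80 bases each and all before the start used for the window, capitals mark these letters on the gene's own strand or the opposite one. They lie at chr4:108579374-108579453 (Orc1, + strand), chr11:98907983-98908062 (Cdc6, + strand), chr8:75109330-75109409 (Mcm5, + strand), chr1:128359766-128359845 (Mcm6, - strand), chr5:138171999-138172078 (Mcm7, - strand) and chrX:93632244-93632323 (Pola1, - strand).
Orc1: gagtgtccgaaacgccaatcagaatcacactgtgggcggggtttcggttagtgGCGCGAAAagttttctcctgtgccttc
Cdc6: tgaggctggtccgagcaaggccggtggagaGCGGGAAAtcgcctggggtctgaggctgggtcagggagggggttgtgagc
Mcm5: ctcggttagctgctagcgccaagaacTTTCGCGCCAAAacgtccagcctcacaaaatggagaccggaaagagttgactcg
Mcm6: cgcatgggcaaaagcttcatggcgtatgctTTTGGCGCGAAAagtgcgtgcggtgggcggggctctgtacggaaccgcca
Mcm7: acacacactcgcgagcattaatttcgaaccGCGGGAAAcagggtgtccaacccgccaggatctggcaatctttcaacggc
Pola1: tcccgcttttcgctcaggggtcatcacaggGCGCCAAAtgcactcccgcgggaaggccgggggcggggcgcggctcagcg
In Mcm5 and Mcm6 a pair of words on opposite strands overlap in 1 run, and a further word of Mcm6 lies nearer to the start. The stretches of Orc1, Cdc6, Mcm7 and Pola1 lie inside the annotated span of the gene, which begins before the start used here. A match is a description of the letters, not of a bound site.

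The letters did not single out the genes with the largest rises. Of the 13 with them, 12 were higher in CAT with a median log2 change of 0.91, and of the 22 without them, 18 were higher with a median of 0.79. Rrm2, which had the largest rise of all 44 genes, and E2f1 itself held none of the words in this window. CCAAT, the box read by NF-Y, stood in a window of 57.1% of the 35 genes against 42.7% of tested genes. CTTTGAA or CTTTGAT, the core read by TCF1 and LEF1, stood in a window of 1 of the 35 genes, Fen1, or 2.9% against 7.2%.

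Of 4 genes of origin recognition and helicase loading, 3 rose. Orc1, the subunit of the origin recognition complex that cycles with cell division, stood at 2.20, 2.07 and 2.72 CPM in the WT libraries and at 9.95, 11.3 and 7.70 CPM in the CAT libraries. The lowest CAT library was above the highest WT library, and the log2 change was 2.05 ± 0.20 (SE, adjusted p = 4.65e-05), or 4.14-fold. Orc1 shares 3632 bases with Prpf38a, and fragments of the overlap cannot be told apart without strand. Cdc6, the loader of the MCM ring, went from 7.65, 7.05 and 6.48 CPM to 23.5, 22.5 and 19.8 CPM, a log2 change of 1.63 ± 0.12 (adjusted p = 1.10e-05). Its groups were well apart. Orc6 stood at 21.0, 18.2 and 16.4 CPM in WT and at 26.4, 27.3 and 20.4 CPM in CAT, so CAT replicate 3 fell inside the WT range. Its log2 change was 0.42 ± 0.14 (adjusted p = 0.035). Cdt1, the partner of CDC6 in loading, stood at 9.38, 9.34 and 10.7 CPM in WT and at 14.1, 12.2 and 9.74 CPM in CAT. CAT replicate 3 again lay within the WT range, and the log2 change of 0.29 ± 0.16 did not pass (adjusted p = 0.151). Without CAT replicate 3, Cdt1 passed with 0.42 (adjusted p = 0.023). The call of Orc6 was lost in 10 of 17 other settings, and without WT replicate 2, WT replicate 3, CAT replicate 1 or CAT replicate 2 its change was 0.40, 0.33, 0.36 and 0.34.

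All 6 subunits of the MCM helicase, the ring that unwinds DNA at the fork, rose. They changed by unequal amounts. Mcm3 stood at 75.7, 72.1 and 75.2 CPM in WT and at 155, 158 and 165 CPM in CAT, a log2 change of 1.10 ± 0.07 (adjusted p = 5.53e-06). Mcm5 went from 74.6, 76.7 and 72.5 CPM to 152, 153 and 164 CPM, with a change of 1.07 ± 0.08. These were the MCM subunits with at least a 2-fold rise. Mcm2 stood at 91.7, 82.3 and 86.0 CPM in WT and at 140, 133 and 162 CPM in CAT, with a change of 0.74 ± 0.09. Mcm6 stood at 146, 187 and 175 CPM in WT and at 262, 254 and 274 CPM in CAT, with a change of 0.64 ± 0.10. Mcm4 stood at 120, 138 and 125 CPM in WT and at 178, 193 and 203 CPM in CAT, with a change of 0.58 ± 0.09. Mcm7 had the smallest change, 0.55 ± 0.08, from 81.8, 76.6 and 73.9 CPM to 108, 118 and 114 CPM. For none of the 6 did a CAT library reach into the WT range. Mcm2, Mcm3, Mcm4, Mcm5 and Mcm6 were highest in CAT replicate 3. Per transcript length, Mcm6 was the most abundant subunit in both genotypes, at 60.9 ± 5.26 FPKM (SD, n = 3) in WT and 94.6 ± 4.90 FPKM in CAT.

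Of 5 genes that switch the loaded ring into a working helicase, 4 rose, with a median log2 change of 1.38 against 0.69 over the 6 MCM genes. The difference of these medians was not tested. Mcm10, which is needed for origin firing, stood at 4.83, 3.75 and 3.72 CPM in WT and at 20.4, 20.4 and 17.5 CPM in CAT. The log2 change was 2.25 ± 0.15 (adjusted p = 5.30e-06), or 4.75-fold, with the groups far apart. Cdc45, the helicase cofactor, changed by 1.54 ± 0.14, from 6.33, 6.64 and 7.47 CPM to 22.0, 20.7 and 17.1 CPM. Of the GINS subunits, which complete the helicase, Gins1 changed by 1.02 ± 0.19 and Gins2 by 1.38 ± 0.18. Gins4 stood at 37.9, 32.8 and 31.9 CPM in WT and at 34.8, 40.7 and 35.0 CPM in CAT. Its groups overlapped, and the change of 0.11 ± 0.11 did not pass (adjusted p = 0.432).

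Of 8 polymerase and primase genes, 7 rose. Pole, the catalytic subunit of polymerase epsilon, which copies the leading strand, had the largest change. It stood at 25.7, 26.8 and 25.6 CPM in WT and at 71.5, 64.1 and 64.6 CPM in CAT, a change of 1.36 ± 0.08 (adjusted p = 3.58e-06), or 2.56-fold. Its second subunit Pole2 changed by 0.91 ± 0.15. In polymerase alpha and primase, which lay down the first RNA and DNA of each strand, the catalytic Pola1 changed by 0.76 ± 0.10, Prim1 by 0.88 ± 0.11, Prim2 by 0.50 ± 0.13 and Pola2 by 0.46 ± 0.10. Pold1, the catalytic subunit of the lagging-strand polymerase delta, changed by 0.41 ± 0.09. Pold2, its accessory subunit, was the single gene of the 44 with a fitted change below 0. It stood at 40.1, 31.6 and 34.7 CPM in WT and at 27.7, 33.0 and 34.1 CPM in CAT, with overlapping groups, and its change of -0.17 ± 0.12 did not pass (adjusted p = 0.275). The calls of Pola2 and Pold1 were lost in 3 of 17 other settings each, and that of Prim2 was lost in 2, among them without WT replicate 3, where its change was 0.43.

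The sliding clamp and its loader changed least, with a median log2 change of 0.41 over 5 genes. Pcna, the clamp that holds polymerases on DNA, stood at 186, 161 and 151 CPM in WT and at 185, 229 and 192 CPM in CAT. CAT replicate 1 lay just under WT replicate 1, and the change of 0.28 ± 0.11 did not pass (adjusted p = 0.0570). Pcna has annotated pseudogenes that can share its fragments. Of the loader subunits, Rfc5 changed by 0.66 ± 0.11, from 21.4, 16.8 and 17.5 CPM to 29.2, 29.5 and 29.3 CPM. Rfc3 changed by 0.41 ± 0.12 and passed (adjusted p = 0.0196). Rfc2 had a small but tight change of 0.27 ± 0.08 (adjusted p = 0.0182), from 47.5, 44.7 and 45.0 CPM to 55.5, 56.6 and 53.0 CPM, and its groups did not overlap. Rfc4 stood at 16.1, 13.0 and 12.8 CPM in WT and at 16.9, 23.0 and 15.9 CPM in CAT, and its change of 0.42 ± 0.16 did not pass (adjusted p = 0.0593). CAT replicate 2 stood above the other libraries. Without WT replicate 1 or CAT replicate 3 both Pcna (0.36 and 0.32) and Rfc4 (0.52 and 0.52) passed. Rfc2 lost its call without WT replicate 2, WT replicate 3, CAT replicate 1 or CAT replicate 2 (0.25, 0.25, 0.26 and 0.25), and Rfc3 without WT replicate 2, WT replicate 3 or CAT replicate 2 (0.36, 0.37 and 0.33).

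Single-strand binding and the joining of Okazaki fragments gave a split picture. Rpa1, the large subunit of the RPA complex that coats single-stranded DNA, stood at 209, 214 and 214 CPM in WT and at 228, 227 and 261 CPM in CAT. All CAT libraries were above all WT libraries, and the change of 0.17 ± 0.08 did not pass (adjusted p = 0.115). Rpa2 changed by 0.49 ± 0.13 and passed, a call lost in 4 of 17 other settings. Lig1, the ligase that seals the fragments, rose from 20.1, 19.3 and 21.9 CPM to 42.6, 47.9 and 47.4 CPM, a change of 1.17 ± 0.10 (adjusted p = 1.52e-05). It shares 1547 bases with Zswim9. Fen1, the nuclease that trims the flaps before ligation, changed by 0.79 ± 0.10.

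All 5 genes of nucleotide supply rose, with a median log2 change of 1.16. Rrm2, the small subunit of ribonucleotide reductase that limits dNTP synthesis in S phase, had the largest change of the 44 genes. It stood at 13.4, 10.4 and 10.2 CPM in WT and at 63.4, 67.2 and 46.0 CPM in CAT, a change of 2.38 ± 0.17 (adjusted p = 6.73e-06), or 5.21-fold. CAT replicate 3 was the lowest CAT library and still more than 3 times the highest WT library. Rrm1, the large subunit, changed by 1.08 ± 0.12, from 67.2, 73.9 and 67.0 CPM to 152, 168 and 119 CPM. Tk1, the thymidine salvage kinase of S phase, changed by 1.50 ± 0.17, and Tyms, which makes dTMP, by 1.16 ± 0.11. Tyms has an annotated pseudogene that can share its fragments. Dut, which keeps dUTP out of DNA, had the smallest change of this group, 0.69 ± 0.12, from 37.8, 32.3 and 31.3 CPM to 60.9, 55.5 and 46.9 CPM.

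Both CAF-1 genes, both fork genes and all 3 regulators among the 44 rose. Chaf1a, the large subunit of the CAF-1 histone chaperone, went from 6.26, 5.50 and 5.67 CPM to 19.8, 19.0 and 18.8 CPM, a change of 1.72 ± 0.12 (adjusted p = 5.83e-06). Chaf1b changed by 0.79 ± 0.11, from 16.9, 14.5 and 14.7 CPM to 28.2, 27.5 and 23.8 CPM. Clspn, the mediator between stalled forks and the kinase CHK1, stood at 6.45, 5.69 and 6.25 CPM in WT and at 32.9, 31.7 and 23.7 CPM in CAT. Its change of 2.26 ± 0.15 (adjusted p = 5.24e-06), or 4.80-fold, was second to that of Rrm2. Tipin, which holds the fork together with TIMELESS, went from 28.9, 20.1 and 21.0 CPM to 47.6, 47.8 and 36.2 CPM, a change of 0.91 ± 0.16. E2f1, the activator of S phase genes, was among the least abundant of the 44, with as few as 48 fragments in a library. It stood at 2.24, 1.53 and 2.06 CPM in WT and at 6.22, 5.30 and 7.67 CPM in CAT, a change of 1.72 ± 0.23 (adjusted p = 2.50e-04). Ccne1, a partner of CDK2 at S phase entry, changed by 1.43 ± 0.12. Its paralog Ccne2 went from 8.57, 8.13 and 6.25 CPM to 17.3, 17.2 and 11.0 CPM, a change of 0.98 ± 0.20 (adjusted p = 0.00319). Ccne2 shares 5622 bases with Ints8.

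Within several complexes some subunits rose while others did not. Other replication genes, 74 that are not among the 44, were taken from a list of the pathway and supply the missing subunits. In the origin recognition complex Orc1 and Orc6 rose, Orc3 (-0.24 ± 0.09), Orc4 (-0.28 ± 0.08) and Orc5 (-0.49 ± 0.12) fell, and Orc2 had a change of -0.23 ± 0.10 that did not pass (adjusted p = 0.0913). In polymerase epsilon Pole, Pole2 and Pole3 (0.60 ± 0.15) rose and Pole4 (-0.41 ± 0.10) fell. In ribonucleotide reductase Rrm1 and Rrm2 rose and Rrm2b (-0.34 ± 0.08), the small subunit known for its induction by DNA damage, fell. For Gins3 (0.02 ± 0.12), Rfc1 (0.003 ± 0.08), Rpa3 (0.15 ± 0.12) and Timeless (0.03 ± 0.12) the change did not pass, and the sign of Gins3, Rfc1 and Timeless turned under upper-quartile scaling and under scaling by library totals. In polymerase delta Pold3 (0.23 ± 0.08) passed and Pold4 (0.35 ± 0.13) did not (adjusted p = 0.0541). The falls of Orc3, Orc4 and Orc5 were lost in 11, 5 and 4 of 17 other settings, the rises of Pold3 and Pole3 in 14 and 4, and the falls of Pole4 and Rrm2b in 3 and 4. Leaving out any 1 library other than WT replicate 3 ended the call of Orc3, with changes from -0.28 to -0.19, and leaving out WT replicate 2 ended that of Orc4, at -0.28. Leaving out any 1 library other than CAT replicate 3 ended that of Pold3, with changes from 0.20 to 0.25. Orc2 passed without WT replicate 3 (-0.30), and Pold4 without WT replicate 1 (0.49) or CAT replicate 3 (0.38).

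**Figure D2:**
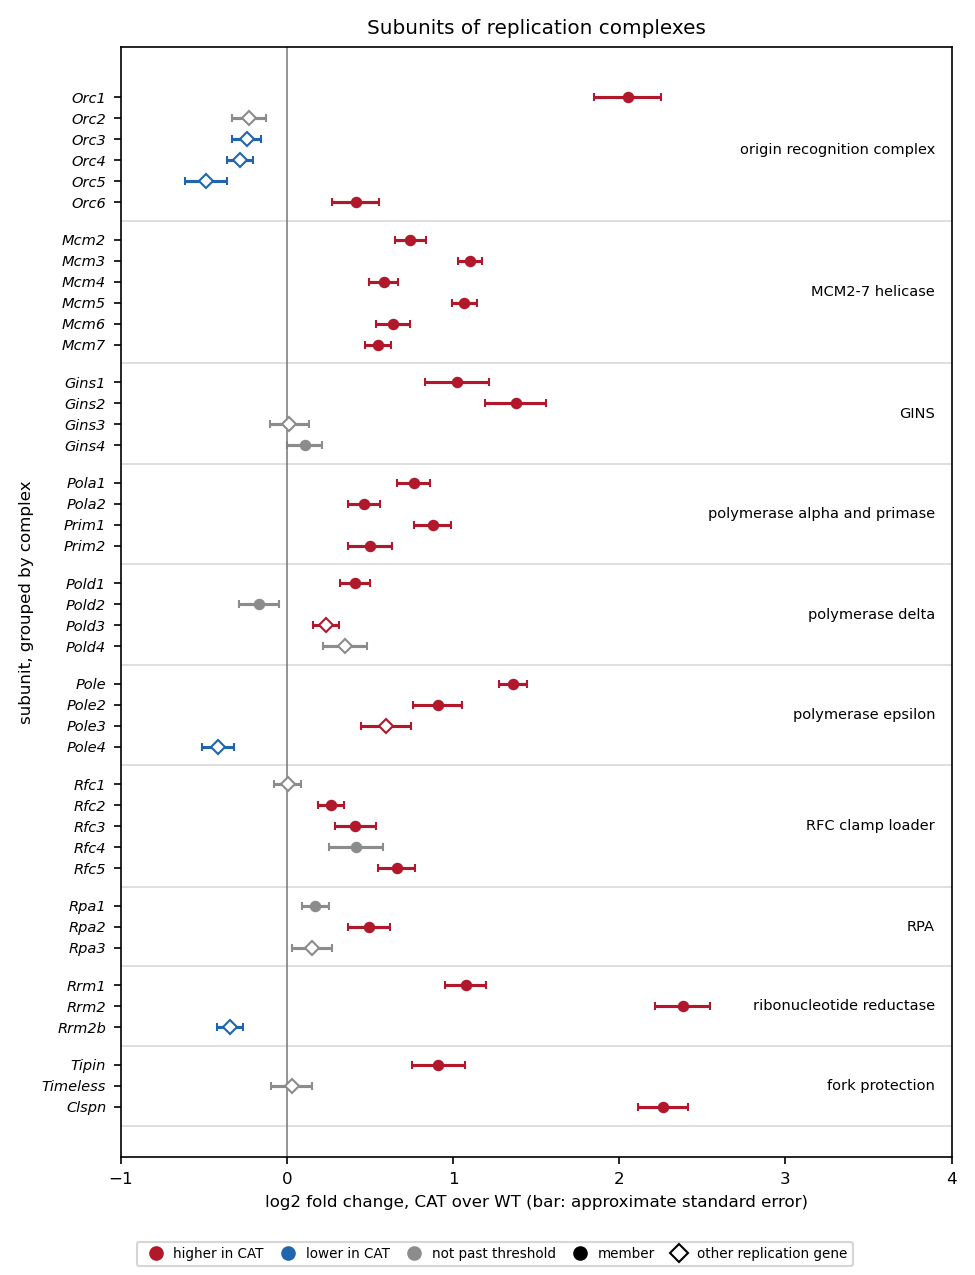
Log2 fold change of CAT over WT for the subunits of replication complexes, with bars of 1 approximate SE (circles, the 44 genes; open diamonds, other replication genes; red, higher; blue, lower; grey, not past the threshold). The 6 MCM subunits all lie right of 0, while the origin recognition complex runs from -0.49 for Orc5 to 2.05 for Orc1.

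As a description, ratios of fragments between partners were taken within each library, where length is not corrected and the difference between genotypes alone is read. The pairs were chosen after their changes were seen, so these values carry no test. The ratio of Orc1 to Orc2 was 0.0272, 0.0279 and 0.0409 in WT and 0.160, 0.163 and 0.134 in CAT. The ratio of Rrm2 to Rrm2b was 0.257, 0.200 and 0.204 in WT and 1.64, 1.62 and 1.12 in CAT. Scaled to transcript length, Rrm2 had a mean of 5.27 FPKM against 10.5 for Rrm2b in WT, and of 27.8 against 8.40 in CAT. The ratio of Pole to Pole4 rose from a mean of 0.436 ± 0.021 (SD, n = 3) to 1.50 ± 0.18. The ratio of Mcm3 to Mcm7 rose from 0.961 ± 0.049 to 1.41 ± 0.066, although both are subunits of 1 ring. For Tipin over Timeless the genotypes overlapped, with 0.749, 0.486 and 0.446 in WT and 1.23, 1.20 and 0.715 in CAT.

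The genes scarcest in WT had, as a group, the larger changes. The levels of the 44 ran from 0.776 ± 0.123 FPKM (SD, n = 3) for Orc1 to 141.7 ± 5.45 FPKM for Pcna in WT. Above the rest stood Pcna, Rpa1 (71.5 ± 0.29 FPKM) and Mcm6, in that order, and at the bottom Orc1 and E2f1 (0.784 ± 0.200 FPKM) did not differ beyond their spread. In CAT the order was close to that in WT (Spearman's rho = 0.949 over 44 genes). The 10 scarcest genes in WT, between 0.776 and 3.67 FPKM, all passed, with changes from 0.98 to 2.26 and a median of 1.68. The 10 most abundant, from 27.8 to 141.7 FPKM, included 7 that passed, with changes from 0.11 to 0.79 and a median of 0.52. Spearman's rho between WT level and log2 change was -0.749 over the 44 genes, which share libraries, against -0.071 over all tested genes. Since the WT level enters both sides, the level over all 6 libraries was used as well and gave -0.609, and the CAT level alone gave -0.532. Over all tested genes these were 0.064 and 0.179.

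**Figure D3:**
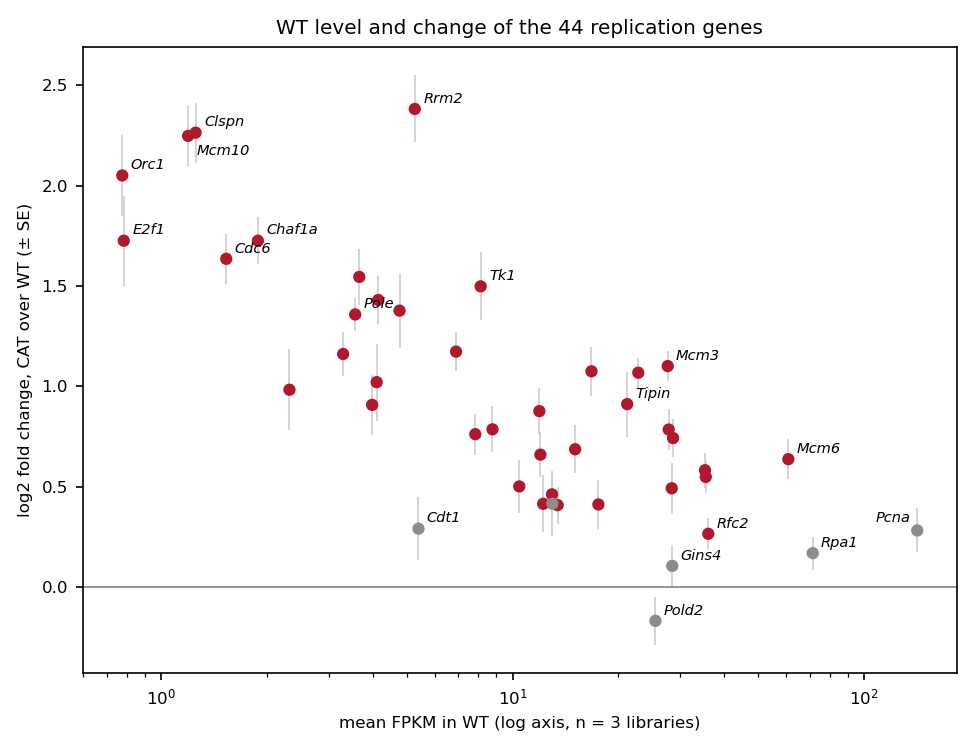
Mean FPKM in WT (log axis, n = 3 libraries) against the log2 fold change of CAT over WT (bars, ± SE) for the 44 genes (red, passed; grey, not past the threshold). Points fall from Orc1, Mcm10 and Clspn at the upper left to Rpa1 and Pcna at the lower right, with Rrm2 above and Cdt1 below the general run.

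Of the 74 other replication genes, 37 rose, 13 fell and 24 did not pass, with a median log2 change of 0.30. Among all tested genes 25.5% rose and 23.5% fell, so the falls, 17.6% of the list, were a smaller share than among all genes. The largest rises at a mean of at least 1 FPKM were those of Ccna2, the cyclin of S phase and G2 (2.50 ± 0.28), Myb (2.11 ± 0.14), Top2a (2.02 ± 0.19), the histone chaperone Asf1b (1.78 ± 0.14), Uhrf1, which guides maintenance methylation (1.78 ± 0.09), and Dscc1 of an alternative clamp loader (1.46 ± 0.22). The largest falls were those of Asf1a, the paralog of Asf1b (-0.67 ± 0.08), Rb1 (-0.59 ± 0.09), the checkpoint genes Rad17 (-0.52 ± 0.11) and Atr (-0.49 ± 0.11), Orc5, and Chtf8 (-0.42 ± 0.13), whose call was lost in 7 of 17 other settings, among them without WT replicate 2, WT replicate 3, CAT replicate 1 or CAT replicate 2 (-0.39, -0.39, -0.33 and -0.35). The licensing inhibitor Gmnn stood at 11.2, 8.86 and 8.61 CPM in WT and at 25.6, 25.4 and 16.9 CPM in CAT (1.25 ± 0.18), while its target Cdt1 did not pass. Of the pocket proteins that hold E2F in check, Rb1 fell from 105, 121 and 110 CPM to 80.1, 68.3 and 74.3 CPM. Rbl1 (0.45 ± 0.09) and Rbl2 (0.41 ± 0.10) rose. Cdk2, the kinase of cyclin E, changed by 0.29 ± 0.09, a call lost in 8 of 17 other settings, among them without WT replicate 1, WT replicate 3, CAT replicate 1 or CAT replicate 2 (0.24, 0.28, 0.25 and 0.29). Without WT replicate 2, 8 falls were called, and without CAT replicate 1 or CAT replicate 2, 9 each. Limma called between 3 and 7.

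CAT replicate 3 had the smallest rise of the CAT libraries for many of these genes. The summed CPM of the 44 was 1762, 1713 and 1671 in WT and 2741, 2868 and 2706 in CAT, so the sums of the genotypes did not overlap. CAT replicate 3 was the lowest CAT library for 25 of the 44 genes, or 56.8%, against 38.2% of all tested genes. It was the highest for 10, namely Mcm2, Mcm3, Mcm4, Mcm5, Mcm6, Pold1, Pold2, Pole2, Rpa1 and E2f1. For mitosis genes the gap was wider. All 34 of a list (kinases, spindle and kinetochore genes) rose, with a median log2 change of 2.26, and CAT replicate 3 was lowest for 33 of them. The median log2 ratio of CAT replicate 3 to the mean of the other two CAT libraries was -0.17 for the 44 replication genes and -0.63 for the mitosis genes. Summed mitosis CPM was 1173, 1271 and 798 in CAT and 280, 245 and 238 in WT. CAT replicate 3 also had the lowest sum of CD8 T and NK cell markers. Without it, 41 of the 44 passed. WT replicate 1 was the highest WT library for 30 of the 44, or 68.2%, against 40.9% of tested genes, and without it 40 passed.

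**Figure D4:**
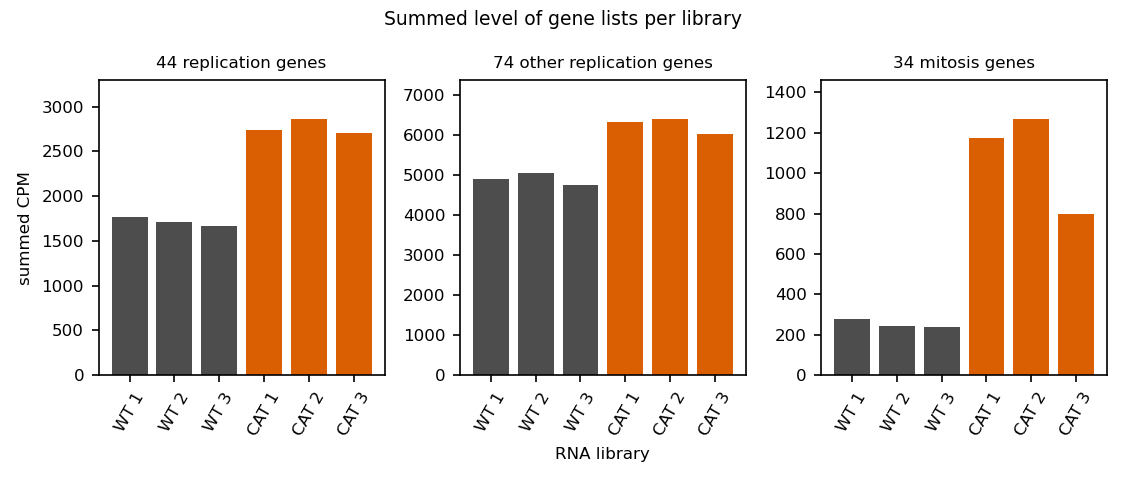
Summed CPM per RNA library of the 44 replication genes, of 74 other replication genes and of 34 mitosis genes (bars from 0; grey, WT; orange, CAT). The replication sum of CAT replicate 3, 2706, is close to those of CAT replicates 1 and 2, while its mitosis sum, 798, lies between theirs and the WT sums.

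Chromatin was open at nearly all starts of these genes in both genotypes. An ATAC peak lay within 1 kb of the annotated start in all 5 libraries for 33 of 35 genes, or 94.3%, against 79.7% of 9957 tested genes. Tk1 had no such peak in any library, and Tyms lacked one in CAT replicate 1 alone. The authors called peaks in each library separately, from 33204 to 41197 in WT and 27129 and 29548 in CAT, so the CAT libraries held fewer peaks throughout. Regions with a peak in all 3 WT and no CAT library lay within 5 kb of 7 of the 44 genes, or 15.9% against 20.4% of tested genes: Gins1, Pold1, Lig1, Rrm2, Tk1, Dut and Chaf1b. All of these genes were higher in CAT RNA, as were 86.4% of the 44. Regions with a peak in both CAT and no WT library lay near Mcm3 and Ccne1, or 4.5% against 6.4%. Their centres were 4918 and 3193 bases from the start. These shares were not tested.

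A TCF1 peak in WT Tregs lay within 5 kb of 17 of the 44 genes, or 38.6%, the same share as for 12540 tested genes. Within 1 kb of the start the counts were 11 of 35 genes, or 31.4% against 29.8%. At Orc1 the E2F-type letters printed above lay outside the TCF1 peak, nearer to the start. That peak was centred 141 bases before the start. The centre lay 34 bases before the start of Pcna, 8 before that of Chaf1b and 24 before that of Lig1. Orc1, Mcm5, Mcm7, Pold1 and Lig1 had both a TCF1 peak within 1000 bases and E2F-type letters. For 16 of the 17 genes the TCF1 peaks fell in ATAC peaks of all 5 libraries, and that of Cdc6 in none. The TCF1 map is 1 library without replicate from older mice, and has no CAT counterpart here.

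**Figure D5:**
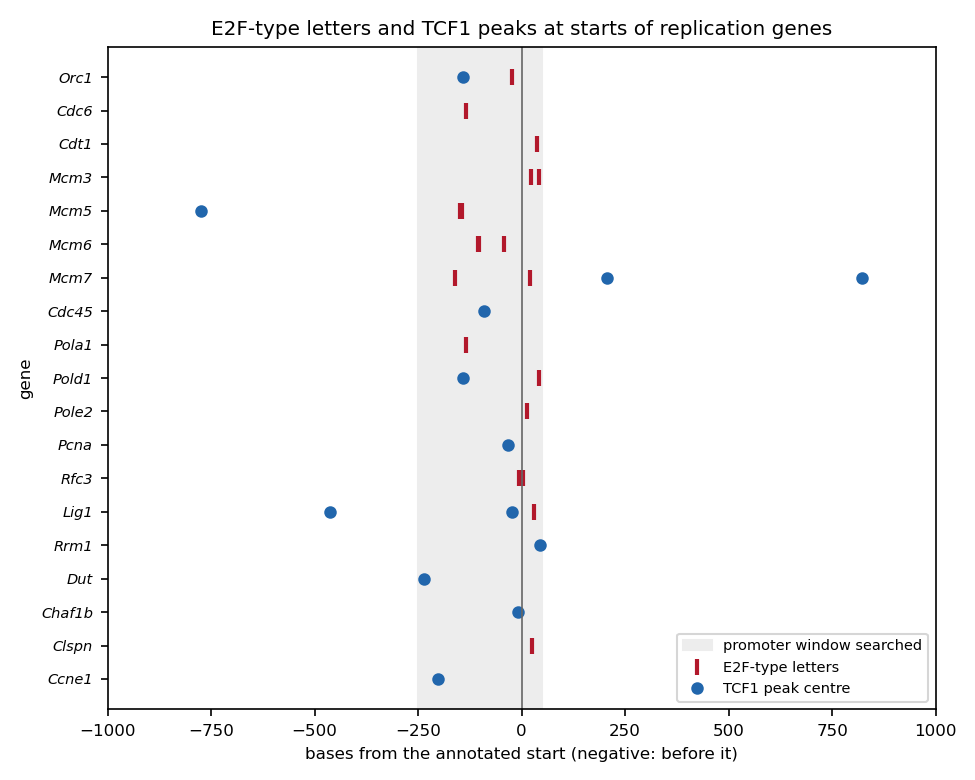
Middle of E2F-type letters (red bars) and centre of WT TCF1 peaks (blue dots) in bases from the annotated start, for the genes with either among the 35 with a promoter window (shaded, the window searched for letters). Letters were found for 13 genes and TCF1 peaks within 1000 bases for 11, with 5 genes in both sets.

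The authors' deposited table, made with their own test, marked 38 of the 44 as significant and higher in CAT and none as lower, against 24.3% higher and 21.5% lower among the 13060 genes that it tested. In the authors' deposited table Pcna was significant (q-value 0.0225) and Rfc2 was not (q-value 0.108). The authors' deposited table also left Cdt1, Gins4, Pold2, Rfc4 and Rpa1 short of significance, with q-values from 0.110 to 0.715.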

How the data were processed

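Estimated counts per gene and library (raw fragments) and FPKM were deposited by the authors as Cuffdiff output, per the file headers. No aligner, annotation, strand setting or Cuffdiff version for RNA was given in the sources used here. Fold changes, FPKM per genotype and q-values (adjusted p-values) in the authors' comparison table also come from Cuffdiff, and its loci were joined to genes by both FPKM values. ATAC peaks, with a fold enrichment ratio per peak, were called by the authors in each library, and MACS2, Bowtie, HOMER and build mm10 are named in the submitters' processing notes. TCF1 peaks were deposited as positions alone, and coordinates are printed counting from 1.

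Libraries are named by the table's numbers, which count from 0, read as replicates 1 to 3. Left out were 25 identifiers that a spreadsheet had turned into dates (0.265 to 0.281% of fragments) and 13 genes with a failed estimate listed at 0. Of the estimated counts, 92.9% were whole within 0.001, and all were rounded. They were tested with edgeR 4.0.16 in R 4.3.3 (quasi-likelihood, TMM factors of 0.978 to 1.03, filterByExpr), with CPM on the TMM-scaled totals. The biological coefficient of variation was 0.132. The depth, between 24124086 and 31527245 fragments, leaves the scarcest of these genes with 48 fragments in a library. DESeq2 1.42.0, limma 3.58.1, other scalings and left-out libraries served as alternatives.

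Named with full values were, per role, the genes with the largest and smallest change, those that missed the threshold and the MCM subunits, and of the other replication genes up to 6 rises and 6 falls plus Cdk2, Rb1, Rbl1, Rbl2, Timeless and Gmnn. Subunits of complexes outside this rule were chosen after their values were seen. The genes and lists were chosen with earlier results of these data known. Promoter sequences are from RefSeq (GRCm38.p6). Mcm4, Gins1, Gins2, Gins4, Prim2, Pole, Rfc2, Tipin and Ccne2 have no window in that table.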

Additional observations from a re-analysis of the deposited data

How the results depend on the processing

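Across 17 other settings, 31 to 41 of the 44 replication genes were called higher and 0 lower, and 30 of the 38 were called in every setting. Leaving out 1 library at a time gave 34 to 41 calls and medians of 0.77 to 0.88. The median fell to 0.70 with limma on quantile-normalized FPKM. The count of 31 came when WT was reduced to its replicate 2, a setting that assumes it varies like the CAT libraries, and lost Orc6, Pola2, Prim2, Rfc2, Rfc3, Rpa2 and Ccne2. The deviations of same-numbered libraries correlated at 0.111, -0.037 and 0.094, against -0.171 to 0.095 for differently numbered ones. With 3 libraries per genotype these values cannot decide whether the numbers pair the samples. A replicate block gave 38 calls, a median of 0.83 and 12 falls among the other replication genes, where the call of Orc3 was lost. Falls among those genes numbered 4 with limma on log2(FPKM + 1), 3 on log2(FPKM + 0.1), 7 after quantile normalization and 8 to 13 with 1 library left out. With WT replicate 2 alone, 24 rose and 4 fell. Over all tested genes the higher and lower calls were 2079 and 1808 with limma on log2(FPKM + 1), 2028 and 1765 on log2(FPKM + 0.1), 1954 and 1631 with WT replicate 2 alone, and 1831 and 2211 after quantile normalization. Lower calls outnumbered higher ones there, under upper-quartile factors (3127 higher, 3419 lower) and under library totals (3040 and 3550). The cause was not tested. Start peaks in all 5 ATAC libraries fell to 3 genes when each peak list was reduced to its upper part by fold enrichment (the peaks above its median), which has fewer peaks by construction (8.6% against 6.5% of tested genes). TCF1 peaks overlapped 10 genes (22.7% against 27.1%) and lay within 1 kb of 11 starts (31.4% against 29.8%). A looser set of E2F letters (GC-rich cores of 6 or 8 bases) stood in windows of 23 genes, or 65.7% against 41.6% of tested genes, a smaller contrast than for the stricter words. The rank correlation of WT and CAT levels was 0.929 on CPM. Changes that did not pass and turned sign were those of Timeless, Rfc1 and Gins3. Under upper-quartile factors they were -0.0094, -0.034 and -0.022, under library totals -0.021, -0.045 and -0.034, under totals without replication and mitosis genes -0.018, -0.042 and -0.031, and under quantile-normalized limma -0.011, -0.037 and -0.015. With limma on log2(FPKM + 1) and log2(FPKM + 0.1), Timeless was at -0.0046 and -0.0054 and Rfc1 at -0.0095 and -0.0099, and with WT replicate 2 alone Rfc1 was at -0.067. With 1 library left out they ran from -0.10 to 0.10, from -0.045 to 0.034 and from -0.042 to 0.079. Depth limits E2f1 and Orc1 most, since they rest on the fewest fragments.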

Other observations

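Among other replication genes of the list, factors of the E2F family differed in what was measured. E2f3 (log2 change 1.35 ± 0.11), E2f2 (0.47 ± 0.12) and their dimer partner Tfdp1 (0.80 ± 0.08) rose in edgeR's quasi-likelihood test. So did E2f7 (2.40 ± 0.24) and E2f8 (2.39 ± 0.27), which are repressors of S phase genes. E2f7 stood at 0.695, 1.21 and 0.883 CPM in WT and at 5.22, 4.88 and 4.74 CPM in CAT. For E2f4, E2f5 and E2f6 the changes were 0.27, -0.23 and 0.11, none of which passed. Of the checkpoint kinases, Chek1 rose (1.43 ± 0.14) and Wee1 rose (0.91 ± 0.14), while Atr fell. These genes were picked after their values were seen.

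The FPKM of some replication genes differed from their CPM in replicate 1 of both genotypes. Relative to the mean ratio of FPKM to CPM in replicates 2 and 3 of both genotypes, the ratio in WT replicate 1 ran from 0.742 for Ccne2 to 1.57 for Pold1, and in CAT replicate 1 from 0.780 to 1.49. In the other 4 libraries it ran from 0.955 to 1.11. Across the 44 genes the values of WT replicate 1 and CAT replicate 1 had a Pearson's r of 0.991, those of replicates 2 an r of 0.834 and those of replicates 3 an r of -0.621, a description over genes, which are not independent replicates. Replicates 2 and 3 form the reference of the ratio, so their spread and r are partly fixed by it. They cannot be set against those of replicates 1. In the counts used for testing, the deviations of same-numbered libraries correlated at 0.111, -0.037 and 0.094. Whether same-numbered libraries share a preparation was not tested. The tests of the report used fragments, not FPKM.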
